A study of Homo sapiens with 66 samples.

Results

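The 4 genes ZIC1, ZIC2, ZIC4 and ZIC5 were followed by name through a differentiation of human pluripotent cells toward spinal motor neurons. They were found by matching Ensembl identifiers to gene symbols, and are 4 of the 60603 genes in the count tables, and the matching used no measured value. RNA-seq libraries of H9, an established human embryonic stem cell (hESC) line that is wild type in every group, were available for 22 groups of 3. The groups are hESC held in mTeSR; human neuromesodermal progenitors at days 1 to 4 (hNMP-D1 to hNMP-D4), which were kept in mTeSR for the first day and then given FGF-2, CHIR99021 (a GSK3 inhibitor that activates Wnt signalling) and the dual-SMAD inhibitors SB431542 and Dorsomorphin; neural determination at days 1 to 6 (NeuDet-D1 to NeuDet-D6), in which FGF-8 and the Notch pathway inhibitor Compound E were added to those factors; human spinal cord neural progenitor cells (hSCNPC) of passage 5, 10, 20, 30 or 40, named hSCNPC-P5 and so on, grown with SB431542, CHIR99021 and Purmorphamine, a Smoothened agonist; and motor neurons at days 6, 12, 18, 24, 30 and 42 (hMN-D6 to hMN-D42), made with Purmorphamine, Compound E, BDNF, GDNF and NT-3. All groups descend from this single line. No library was labelled as day 0 of the motor neuron course, so hSCNPC-P10 stood in for it. Whether libraries with the same label derive from independent cultures was not stated, and p-values here measure only the spread between libraries, which may be technical.

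ZIC genes encode zinc finger transcription factors related to the Drosophila gene odd-paired and, through the zinc finger domain, to the GLI factors of the hedgehog pathway. In vertebrate embryos they act in the epiblast, the dorsal neural tube and the neural crest. ZIC2 binds enhancers in pluripotent cells, and its loss in people causes holoprosencephaly; ZIC1 and ZIC4 are expressed together in the dorsal neural tube and the cerebellum, where their joint deletion has been tied to Dandy-Walker malformation; and ZIC5, the partner of ZIC2, is needed for neural tube closure and neural crest in the mouse.

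The genes lie in divergent pairs. ZIC1 (ENSG00000152977.10, plus strand, GENCODE release 44 on GRCh38, chr3:147393422-147510293) and ZIC4 (ENSG00000174963.17, minus strand, chr3:147386046-147406809) point away from each other, with canonical transcription starts 2822 bases apart, and their annotated spans overlap by 13388 bases. ZIC2 (ENSG00000043355.12, plus strand, chr13:99981784-99986765) and ZIC5 (ENSG00000139800.8, minus strand, chr13:99962964-99971767) have starts 10017 bases apart and no overlap. Exons of ZIC1 overlapped those of other genes over 2.58% of their merged length and exons of ZIC4 over 5.21%, and reads from those bases cannot be assigned to a strand unless the counting used strand, which was not stated. The 4 genes shared 0 stretches of 50 bases in their transcripts, so they hold no identical stretch of that length that could split reads between members.

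Because members of each pair had the same direction at the steps below where both passed the test, the promoters are shown for comparison. RefSeq gave 4 windows for ZIC4, 3 for ZIC5 and 1 each for ZIC1 and ZIC2, and only the window at the canonical start was used. The 250 bases before that start (GRCh38.p14) are printed 5′ to 3′ on the gene's own strand. Capitals mark exact matches, on either strand, to 9 short motifs named below. The printed stretches are given by position next. They are ZIC1 chr3:147409115-147409364, ZIC4 chr3:147406544-147406793, ZIC2 chr13:99981534-99981783 and ZIC5 chr13:99971768-99972017.
ZIC1: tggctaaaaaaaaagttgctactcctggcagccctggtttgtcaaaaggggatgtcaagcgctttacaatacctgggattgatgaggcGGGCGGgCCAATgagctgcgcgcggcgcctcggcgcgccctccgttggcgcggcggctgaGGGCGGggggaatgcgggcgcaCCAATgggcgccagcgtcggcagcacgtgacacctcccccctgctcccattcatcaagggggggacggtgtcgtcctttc
ZIC4: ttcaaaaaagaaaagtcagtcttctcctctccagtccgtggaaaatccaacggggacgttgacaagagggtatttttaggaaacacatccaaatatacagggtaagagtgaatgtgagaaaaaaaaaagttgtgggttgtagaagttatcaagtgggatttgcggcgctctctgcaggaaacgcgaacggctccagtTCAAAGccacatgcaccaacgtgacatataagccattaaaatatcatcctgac
ZIC2: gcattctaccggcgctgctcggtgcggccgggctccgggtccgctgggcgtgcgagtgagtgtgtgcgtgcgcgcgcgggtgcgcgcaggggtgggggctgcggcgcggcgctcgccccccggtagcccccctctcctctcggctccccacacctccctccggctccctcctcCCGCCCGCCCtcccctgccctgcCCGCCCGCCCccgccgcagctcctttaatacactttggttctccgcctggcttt
ZIC5: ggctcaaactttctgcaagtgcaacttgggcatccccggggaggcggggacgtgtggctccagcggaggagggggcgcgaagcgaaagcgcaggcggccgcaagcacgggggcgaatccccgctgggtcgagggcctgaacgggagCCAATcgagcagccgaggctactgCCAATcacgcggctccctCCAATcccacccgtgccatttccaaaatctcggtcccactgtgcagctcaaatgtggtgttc

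The windows used for the partners did not look alike. GC content was 64.4% for ZIC1 and 42.8% for ZIC4, 75.6% for ZIC2 and 64.8% for ZIC5, against a median of 58.0% over 35116 RefSeq promoter windows of 300 bases. Searched over the 250 bases before and 50 after the start, the SP/KLF motif GGGCGG occurred 2 times for ZIC1 and 4 times for ZIC2 and is held by 45% of all windows, and the CCAAT box occurred 2 times for ZIC1 and 4 times for ZIC5 and is held by 34.6%. The TCF/LEF motif CTTTGA occurred 1 time, for ZIC4, and is held by 12.9%. The other motifs had no match in the 4 windows. These were the SOX motif ACAAAG, which 16.1% of all windows hold, and the CDX motif TTTATG, which 10.6% hold. The HOX/PBX motif TGATTGA is held by 2.07% of windows and the TATA box TATAAA by 11.5%. The GLI/ZIC motif CCACCCA is held by 9.19% and the E box CAGCTG by 17.9%. Some printed matches to GGGCGG overlap each other, and no motif match was shared by both partners of ZIC1:ZIC4 or of ZIC2:ZIC5.

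Library totals ran from 14142238 to 40204753 counts with a median of 20676228. Levels are given as CPM, counts scaled to library size in counts-per-million units with TMM factors, as mean ± SD of 3 libraries. Marker genes followed the labels in part. Pluripotency markers (POU5F1, NANOG, LIN28A, DPPA4) summed to 2826 to 2942 CPM in hESC, 3281 to 3331 CPM in hNMP-D1 and 16.5 to 17.96 CPM in hMN-D42. All 5 neural progenitor markers were at 1 CPM or more in each hSCNPC group, all 6 neuron markers summed to 4084 to 4223 CPM in hMN-D6, and all 5 motor neuron markers were at 1 CPM or more in hMN-D6, where they summed to 57.2 to 59.5 CPM. Markers of cycling cells summed to 1239 to 1424 CPM in hESC and 28.0 to 32.9 CPM in hMN-D6. Forebrain markers, which the spinal labels do not name, rose from 0.111 to 0.254 CPM in hMN-D6 to 10.1 to 10.8 CPM in hMN-D42. In bulk RNA, fewer cells that express a gene and less RNA per cell cannot be told apart.

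In CPM per kilobase of merged exons, ZIC2 had the highest mean level of the 4 genes and ZIC4 the lowest in every group from hESC to hSCNPC-P40. The same held in hMN-D6 and hMN-D42, but not from hMN-D12 to hMN-D30. Per kilobase of the canonical transcript, ZIC5 was instead lowest in hMN-D6 (0.0743 against 0.0918 for ZIC4) and hMN-D42 (0.350 against 0.413). ZIC2 was at 182.25, 182.2 and 170.72 CPM in the hESC libraries, reached its highest group mean in NeuDet-D4 with 357.56, 338.06 and 350.12 CPM, and was lowest in hMN-D24 with 2.41, 1.23 and 2.104 CPM. All 3 libraries of NeuDet-D4 lay above every other library. ZIC5 was highest in hESC, at 81.1, 81.8 and 79.6 CPM, and lowest in hMN-D24, at 0.150, 0.182 and 0.159 CPM. The hESC libraries again lay above all others, so the peaks of ZIC2 and ZIC5 fell in different groups.

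ZIC1 followed another course. It was lowest in hESC, at 0.330, 0.159 and 0.313 CPM, and highest in hMN-D42, at 14.8, 16.7 and 17.3 CPM. NeuDet-D1 came next, at 14.5, 12.8 and 13.3 CPM, below all hMN-D42 libraries. ZIC4 was lowest in hESC, with counts of 0, 1 and 0, and highest in hSCNPC-P30, at 1.87, 1.44 and 2.04 CPM. The hMN-D42 libraries, at 1.32, 1.78 and 1.87 CPM, overlapped that range. The hMN-D42 mean of ZIC4 was the higher with RLE scaling (1.76 against 1.70) and with library totals (1.97 against 1.64). The group in which ZIC4 peaked thus depended on the scaling. Its counts per library ran from 0 to 48, with 4 libraries at 0, so its values are the least precise of the family.

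When the 22 group means were placed in order, the ranges of the 3 libraries overlapped between neighbours in 17 of 21 positions for ZIC1, 7 for ZIC2, 21 for ZIC4 and 9 for ZIC5. How often such ranges overlap over all genes is not given here. The genes also differ in depth, with at most 48 counts in a library for ZIC4 and 12285 for ZIC2. For ZIC1 the gaps lay below hMN-D42, below NeuDet-D1, between hNMP-D4 and hMN-D6, and between hSCNPC-P10 and hSCNPC-P20, and the groups within each stretch between gaps overlapped their neighbours. For ZIC2 all 5 hSCNPC groups were apart from both neighbours in the order, and for ZIC5 4 of 5, with hSCNPC-P30 overlapping hNMP-D4. The 5 hMN groups before day 42 were the lowest for both genes and overlapped each other in order, except that ZIC5 in hMN-D24 lay below hMN-D30.

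**Figure D1:**
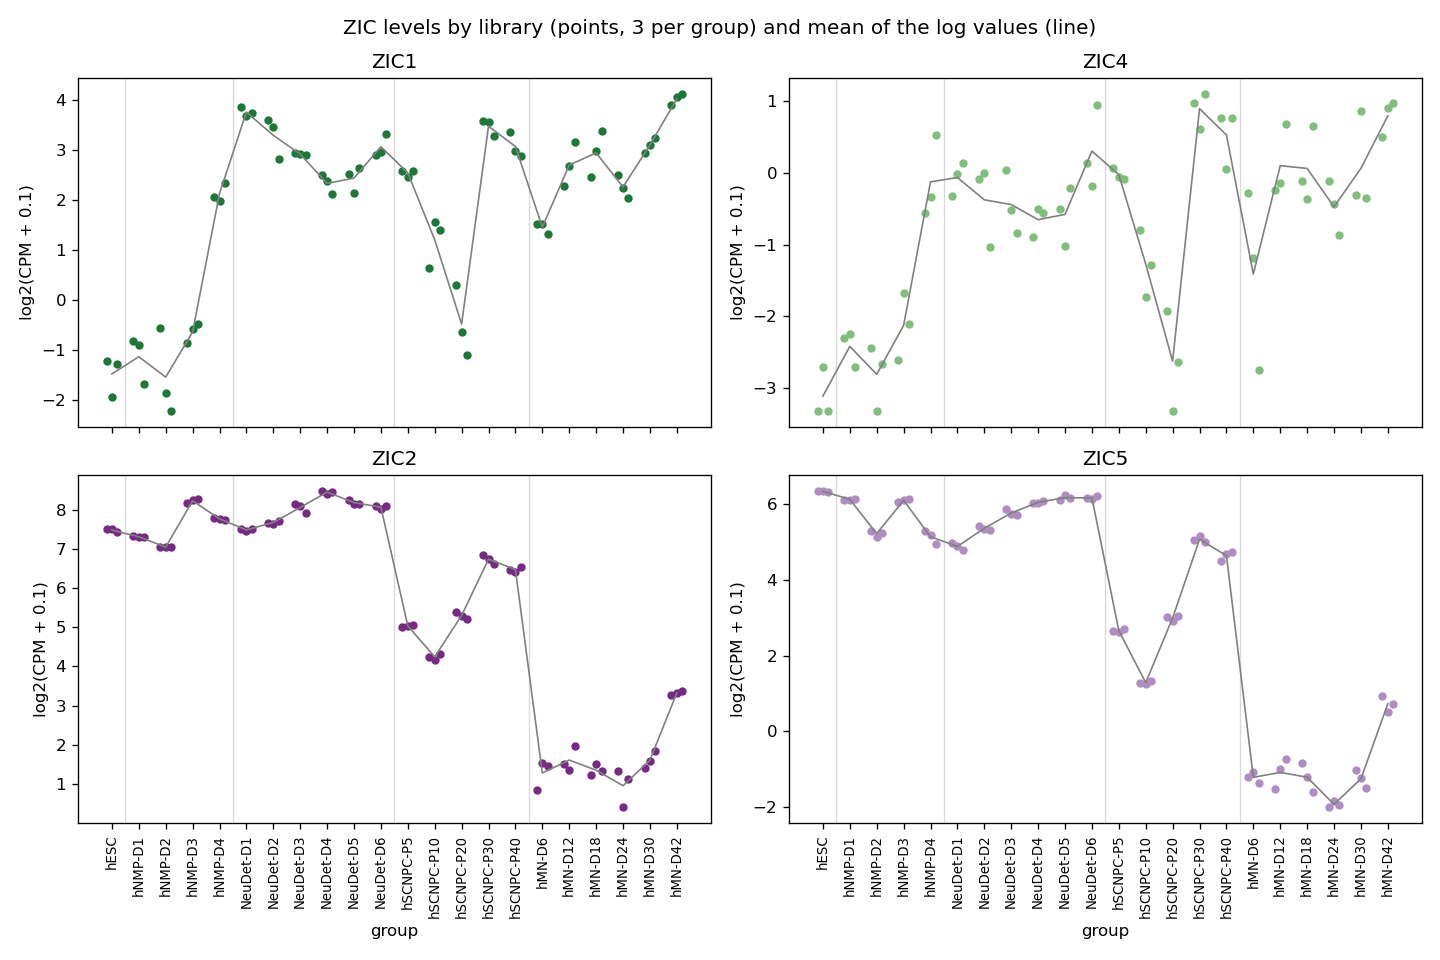
ZIC levels by library. Each panel plots log2(CPM + 0.1) on the vertical axis against the 22 groups on the horizontal axis, with 3 points for the libraries of a group, a line through the means of the log values and grey lines between stages. ZIC1 and ZIC4 climb at hNMP-D4 and dip at hSCNPC-P20, while ZIC2 and ZIC5 drop at hSCNPC-P5 and again at hMN-D6.

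Between hESC and hNMP-D4 all 4 genes changed, and ZIC5 went against the others. ZIC1 was at 4.10, 3.87 and 4.96 CPM in hNMP-D4 against 0.159 to 0.330 CPM in hESC, 16.1-fold higher (log2 fold change 4.01, SE 0.352, adjusted p = 5.5e-14 by edgeR's quasi-likelihood test with Benjamini-Hochberg adjustment). ZIC4 was at 0.578, 0.689 and 1.34 CPM against counts of 0, 1 and 0 in hESC (log2 fold change 5.22, SE 0.777, adjusted p = 8.69e-08). Since hESC held 1 count and hNMP-D4 held 56, the ratio of scaled counts was 48.1 with an exact 95% interval of 8.29 to 1930 for counting error only; without the second hESC library, which held that count, the gene is listed at 0 in hESC. The groups did not overlap for either gene. ZIC2 rose 1.22-fold, from 178 ± 6.65 to 217 ± 4.83 CPM (adjusted p = 1.02e-05), and ZIC5 fell 2.29-fold, from 80.8 ± 1.15 to 35.3 ± 4.39 CPM (adjusted p = 2.21e-21). Of 21597 genes tested, 54.3% passed the same threshold in this comparison, so the count of 4 of 4 stands against a large background.

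The daily libraries placed these changes on different days. ZIC2 and ZIC5 fell together at hNMP-D1 and hNMP-D2, to 132 ± 0.121 and 37.3 ± 2.35 CPM, where 47.1% and 50.3% of genes passed, while ZIC1 and ZIC4 did not pass the test on either day. From hNMP-D2 to hNMP-D3 ZIC2 rose 2.30-fold, to 288.5, 300.6 and 308.9 CPM, and ZIC5 rose 1.86-fold, to 66.2, 69.3 and 70.3 CPM, where 45.9% of genes passed. From hNMP-D3 to hNMP-D4 both fell (log2 fold changes -0.48 and -0.98), and ZIC1 and ZIC4 rose (2.94, SE 0.306, and 2.68, SE 0.544); 37.4% of genes passed the test at that step. The pairs thus moved in opposite directions at the step where ZIC1 and ZIC4 first passed the test.

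Genes known for the same stage were read beside the family, in hNMP-D4 against hESC, where 54.3% of all genes passed. Of 14 genes in a neuromesodermal list, 13 passed the filter on low counts, and 7 of them rose and 3 fell (median log2 fold change 2.01, against 0.01 over all genes, or 1.71 with MSGN1, which hESC listed at 0, set to the bound that 3 counts over a group allow). WNT8A, a Wnt ligand, changed by 8.86, CDX2, a caudal homeobox gene, by 8.64 and TBXT, which encodes Brachyury, by 3.40, while FGF8 fell by 2.18. Of 10 primed epiblast genes 9 were tested, and 8 fell and none rose (median -1.41), among them NANOG, which fell by 3.54, and POU5F1, which fell by 1.72. The early neural list of 10 had 7 higher and 1 lower (median 1.64, or 1.05 with HES5 at its bound), with SOX1 at 7.73 and SOX2, the gene that fell, at -0.71. The 5 neural crest markers SOX10, FOXD3, TFAP2A, TFAP2B and ERBB3 summed to 103 to 109 CPM in hESC, 53.8 to 60.7 CPM in hNMP-D3 and 56.1 to 68.8 CPM in hNMP-D4, overlapping between the last 2 groups. Within that sum TFAP2A, a crest and surface ectoderm factor, was at 4.81 ± 1.40 CPM in hNMP-D4 against 0.369 ± 0.178 CPM in hNMP-D3, and SOX10 was at 2.90 ± 0.696 CPM against 2.22 ± 0.271 CPM; their part in the rise of ZIC1 and ZIC4 was not tested.

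**Figure D2:**
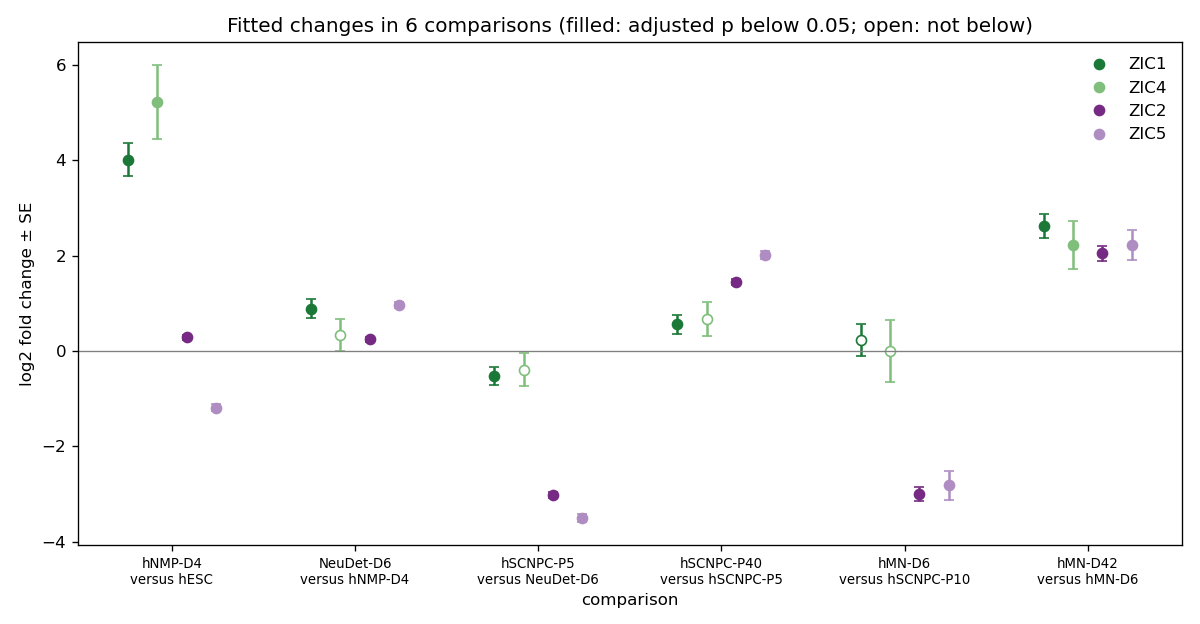
Fitted log2 fold change (vertical axis) of each ZIC gene in 6 comparisons (horizontal axis), with bars of 1 standard error; filled points have an adjusted p below 0.05 and open points do not. ZIC2 and ZIC5 fell by about 3 or more at hSCNPC-P5 and by 3.003 and 2.82 at hMN-D6, and all 4 genes rose between hMN-D6 and hMN-D42.

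Across neural determination, from hNMP-D4 to NeuDet-D6, ZIC1, ZIC2 and ZIC5 rose and ZIC4 did not pass the test; 65.1% of genes passed. ZIC5 was at 71.0, 70.2 and 73.7 CPM in NeuDet-D6 against 39.2, 36.3 and 30.6 CPM in hNMP-D4 (log2 fold change 0.97, SE 0.068, adjusted p = 1.79e-18). ZIC1 was at 7.41, 7.76 and 9.96 CPM against 3.87 to 4.96 CPM (0.89, SE 0.194, adjusted p = 8.16e-05). ZIC2 rose by 0.24 (SE 0.054, adjusted p = 9.14e-05), and for both ZIC1 and ZIC2 the libraries of the groups did not overlap. ZIC4 was at 1.21 ± 0.555 against 0.871 ± 0.414 CPM (0.34, SE 0.339, adjusted p = 0.387), and without the third NeuDet-D6 library the value was -0.008.

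Within those 6 days ZIC1 passed in the direction opposite to ZIC2 and ZIC5 at the steps into NeuDet-D1 and NeuDet-D4 only. On the first day of NeuDet medium ZIC1 rose 3.05-fold, to 13.5 ± 0.890 CPM (log2 fold change 1.61, SE 0.191, adjusted p = 4.55e-10), while ZIC2 and ZIC5 fell by 0.31 and 0.29. The ZIC5 ranges overlapped. ZIC4, the partner of ZIC1, did not pass at this step (-0.08, SE 0.347, adjusted p = 0.857), at 0.865 ± 0.154 CPM in NeuDet-D1. Of all genes, 56% passed the test here. From NeuDet-D1 to NeuDet-D4 ZIC2 rose at each of 3 steps, from 179 ± 4.20 to 349 ± 9.84 CPM, and ZIC5 rose at the same 3 steps, from 29.5 ± 2.08 to 66.1 ± 1.57 CPM; 24.5%, 35.7% and 24.4% of genes passed at these steps. ZIC1 was at 10.01 ± 2.68, 7.49 ± 0.0905 and 4.98 ± 0.689 CPM on days 2, 3 and 4, of which the last step passed (-0.60, SE 0.185, adjusted p = 0.0138). ZIC1 and ZIC4 then rose between NeuDet-D5 and NeuDet-D6, by 0.62 (adjusted p = 0.0103) and 1.00 (adjusted p = 0.0278), where 22.2% of genes passed. Mesenchyme markers summed to 264 to 294 CPM in hESC. The sum was 60.3 to 74.1 CPM in hNMP-D4, 106 to 111 CPM in NeuDet-D1 and 219 to 228 CPM in NeuDet-D4, where ZIC1 was lower, and their part in the peak of ZIC1 was not tested.

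Gene lists were read against the 65.1% of all genes that passed in this comparison. Of 13 dorsal neural tube genes 9 were tested, and 7 rose and 2 fell (median log2 fold change 1.06, against -0.04 over all genes). MSX1, a homeobox gene of the roof plate region, changed by 5.88, BMP6 by 3.52, MSX2 by 3.08 and PAX3 by 2.48, while OLIG3, a factor of dorsal progenitors, fell by 5.73. The hedgehog list of 12 had 9 higher and 1 lower (median 0.70), led by HHIP (3.38), BOC (2.77) and PTCH1 (2.27), while GLI1, a transcriptional target of the pathway, fell by 0.83. Of the 9 genes in a BMP feedback list 5 rose and 3 fell (median 0.49), with the antagonist NOG at 6.01.

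The step from NeuDet-D6 to hSCNPC-P5 brought the largest drop of ZIC2 and ZIC5 among the 15 steps before the motor neuron groups. ZIC2 was at 32.3, 32.6 and 33.0 CPM in hSCNPC-P5 against 259.6 to 271.0 CPM in NeuDet-D6, 8.10-fold lower (log2 fold change -3.02, SE 0.061, adjusted p = 3.3e-42). ZIC5 was at 6.15, 6.10 and 6.43 CPM against 70.2 to 73.7 CPM, 11.4-fold lower (-3.51, SE 0.084, adjusted p = 7.51e-39). ZIC1 fell by 0.52 (SE 0.191, adjusted p = 0.0164), to 5.92, 5.41 and 5.91 CPM, a call that was lost without the third NeuDet-D6 library (-0.411, adjusted p = 0.0821). ZIC4 was at 0.885 ± 0.0546 against 1.21 ± 0.555 CPM and did not pass (-0.40, SE 0.348, adjusted p = 0.338). Of all genes 59.4% passed the threshold here.

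The lists moved in mixed ways at this step, where 59.4% of all genes passed. Of the 13 neuromesodermal genes tested 11 fell and 2 rose (median log2 fold change -6.66, against -0.02 over all genes, or -5.07 with the 3 genes that hSCNPC-P5 listed at 0 set to their bounds). CDX2 fell by 11.27, and TBXT, at 9.15 CPM in NeuDet-D6 and 0 in hSCNPC-P5, was at least 162-fold lower by a floor of 3 counts over the group. Of the 10 early neural genes 9 rose (median 3.12), PAX6 by 11.64 and HES5, a Notch target, from 0 to 16.8 CPM, at least 560-fold by the same floor. Dorsal genes were split, with 3 higher, 6 lower and a median of -2.21: PAX3 and PAX7 rose by 3.18 and 2.93, and MSX1 and MSX2 fell by 3.36 and 3.05. The hedgehog list had 11 higher and 1 lower (median 1.10), with GLI1 at 2.28 and GLI2 at 1.77.

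During passaging the pairs parted and then rose together. From hSCNPC-P5 to hSCNPC-P10 all 4 genes fell, where 16.4% of genes passed: ZIC1 by 1.36 on the log2 scale (SE 0.230, adjusted p = 9.58e-06), ZIC2 by 0.79 (SE 0.067), ZIC4 by 1.35 (SE 0.448, adjusted p = 0.0294) and ZIC5 by 1.41 (SE 0.126). From hSCNPC-P10 to hSCNPC-P20 ZIC2 and ZIC5 rose and ZIC1 and ZIC4 fell, where 25.5% of genes passed. ZIC1 was at 1.14, 0.539 and 0.365 CPM in hSCNPC-P20 against 1.47, 2.86 and 2.54 CPM in hSCNPC-P10 (log2 fold change -1.67, SE 0.321, adjusted p = 4.66e-05). ZIC4 had counts of 3, 0 and 1 against 11, 3 and 6 (-2.15, SE 0.727, adjusted p = 0.0226). ZIC2 was at 41.9, 39.0 and 37.1 CPM against 17.9 to 19.9 CPM (1.08, SE 0.066), and ZIC5 at 8.02, 7.44 and 8.16 CPM against 2.26 to 2.44 CPM (1.76, SE 0.121). No range overlapped for any of the 4 genes, and how often the ranges of all genes are apart is not given here.

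From hSCNPC-P20 to hSCNPC-P30 all 4 rose, where 38.5% of genes passed. ZIC1 reached 11.9, 11.8 and 9.69 CPM, 16.1-fold higher (log2 fold change 4.01, SE 0.268, adjusted p = 1.15e-17), and ZIC4 held 81 counts against 4, a ratio of 24.9 with an exact 95% counting interval of 9.35 to 93.5. ZIC2 reached 114.9, 106.6 and 98.6 CPM (1.44, SE 0.060) and ZIC5 33.2, 35.8 and 31.7 CPM (2.09, SE 0.085). In a fit of the 15 hSCNPC libraries that left out each library in turn, ZIC1, ZIC2 and ZIC5 passed at all of these steps from passage 5 to passage 30. ZIC4 lost its call between passages 5 and 10 without the second hSCNPC-P10 library (adjusted p = 0.0528), and between passages 10 and 20 without the first hSCNPC-P10 library (-1.75, adjusted p = 0.0885) or the second hSCNPC-P20 library (-1.51, adjusted p = 0.0839). Without the first hSCNPC-P20 library its values were -3.35 at that step and 5.71 from passage 20 to 30, and without the second the latter was 3.88. From passage 30 to 40, where 6.14% of genes passed, ZIC2 fell by 0.28 and ZIC5 by 0.44, and ZIC1 (-0.41, adjusted p = 0.215, or 0.0485 without the first hSCNPC-P40 library) and ZIC4 (-0.36, adjusted p = 0.611) did not pass.

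Over the whole course of passaging, hSCNPC-P40 against hSCNPC-P5, ZIC1, ZIC2 and ZIC5 were higher, where 46.9% of genes passed. ZIC2 was at 87.9, 84.7 and 93.3 CPM (log2 fold change 1.45, SE 0.061, adjusted p = 2.01e-27) and ZIC5 at 22.5, 25.8 and 26.5 CPM (2.01, SE 0.089, adjusted p = 2.81e-26), 2.73-fold and 4.02-fold above passage 5. ZIC1 was at 10.2, 7.80 and 7.28 CPM against 5.41 to 5.92 CPM (0.56, SE 0.198, adjusted p = 0.0172); the call was lost without the second hSCNPC-P5 library (adjusted p = 0.0771) or the first hSCNPC-P40 library (0.371, adjusted p = 0.178). ZIC4 did not pass (0.67, SE 0.360, adjusted p = 0.122). The net difference of ZIC1 was 1.47-fold, against 16.1-fold between passages 20 and 30.

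Dorsal and ventral genes were compared over the same passages. Between hSCNPC-P10 and hSCNPC-P20 6 of 9 tested dorsal genes rose and 2 fell, and 4 of 11 ventral spinal cord genes rose and 7 fell, against 25.5% of all genes that passed. PAX3 went from 125 ± 4.38 to 331 ± 5.93 CPM and PAX7 from 15.2 ± 1.15 to 92.4 ± 6.88 CPM, while NKX6-1, a ventral progenitor factor, went from 72.4 ± 3.59 to 16.7 ± 0.887 CPM. Over hSCNPC-P40 against hSCNPC-P5, where 46.9% of all genes passed, the dorsal list had 6 higher and 1 lower (median log2 fold change 0.64, against -0.01 over all genes) and the ventral list 2 higher and 5 lower (median -3.49, or -0.97 with 2 genes that hSCNPC-P40 listed at 0 at their bounds). DBX1 fell by 12.98, and OLIG2, a motor neuron progenitor factor, was at 0.430 CPM in hSCNPC-P5 and listed at 0 in hSCNPC-P40, at least 8.04-fold lower. PAX3 and PAX7 were already high at passage 20, where ZIC1 and ZIC4 were at their lowest of the passaged groups. Mesenchyme markers summed to 70.1 to 92.3 CPM in hSCNPC-P10, 10.8 to 13.2 CPM in hSCNPC-P20 and 33.0 to 36.7 CPM in hSCNPC-P30, where LUM supplied 28.5 ± 2.25 CPM. Glia markers summed to 71.1 to 73.3, 107 to 126 and 149 to 180 CPM. The 5 neural crest markers summed to 1.12 to 1.81 CPM in hSCNPC-P10, 14.3 to 15.6 CPM in hSCNPC-P20 and 14.5 to 17.2 CPM in hSCNPC-P30, with SOX10, a crest factor, at 0.202 to 0.279 CPM in the means of these groups. The part of these markers in the ZIC values was not tested.

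**Figure D3:**
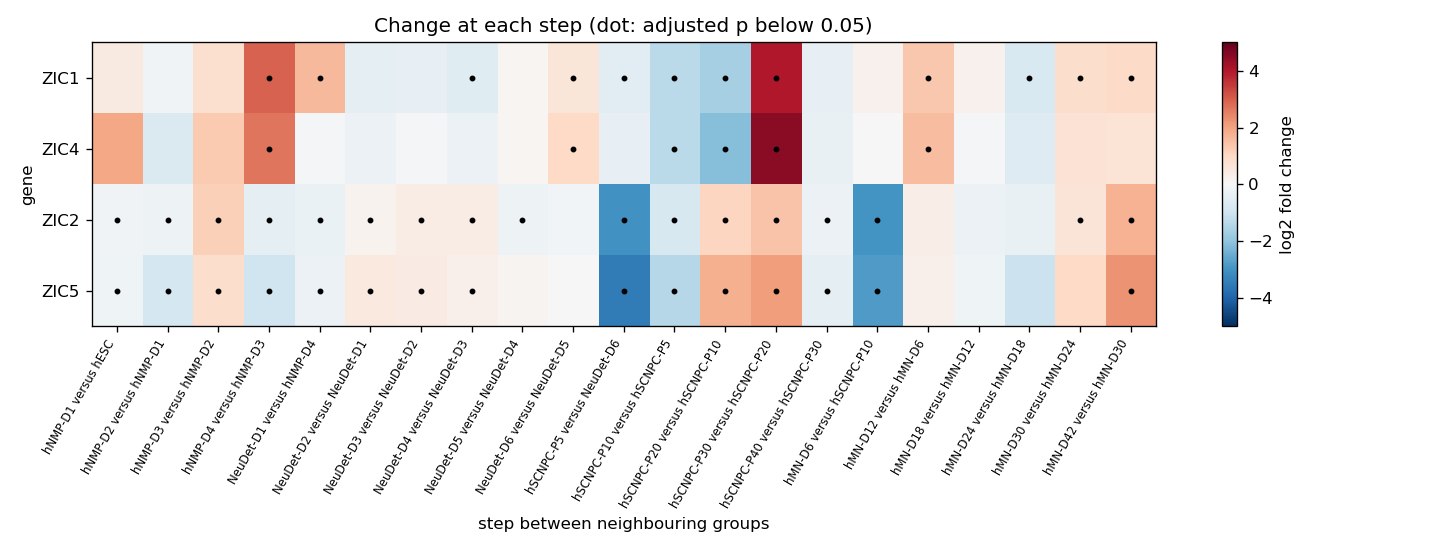
Fitted log2 fold change (colour) of the 4 ZIC genes (rows) at 21 steps between neighbouring groups (columns); hMN-D6 is set against hSCNPC-P10. A dot marks an adjusted p below 0.05. ZIC2 and ZIC5 share dots and direction at 15 steps, and ZIC1 and ZIC4 at 6.

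ZIC2 and ZIC5 fell again at the start of the motor neuron groups. In hMN-D6 ZIC2 was at 1.72, 2.79 and 2.66 CPM against 17.9 to 19.9 CPM in hSCNPC-P10 (log2 fold change -3.003, SE 0.154, adjusted p = 6.51e-22), and ZIC5 at 0.332, 0.380 and 0.290 CPM against 2.26 to 2.44 CPM (-2.82, SE 0.296, adjusted p = 4.17e-12). ZIC1 (0.22, SE 0.334, adjusted p = 0.558) and ZIC4 (-0.01, SE 0.652, adjusted p = 0.996) did not pass, at 2.66 ± 0.211 and 0.369 ± 0.337 CPM. Of 21175 genes tested 75.2% passed. The fall of ZIC2 and ZIC5 held against every other passage, but the result for ZIC1 and ZIC4 turned on which passage stood for day 0: against hSCNPC-P20 they were higher in hMN-D6 (1.944 and 2.210), and against hSCNPC-P30 lower (-2.059 and -2.317). These libraries come from separate count tables, and table and stage cannot be told apart here.

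The list counts at this step stand against the 75.2% of all genes that passed. The hedgehog list fell, with 11 of 12 lower, 1 higher and a median of -1.76 against 0.08 over all genes. GLI1 fell by 6.54, GLI3 by 4.82 and GLI2 by 3.44. Of 10 tested dorsal genes 6 fell and 1 rose (median -1.69), PAX3 by 6.15 and PAX7 by 5.21. Of the 12 dorsal interneuron genes 9 were tested, and 7 rose and none fell (median 2.74, or 2.62 with LHX9 at its bound), among them ISL1 (3.93), which is also a motor neuron factor, FOXD3 (3.79) and LMX1B (3.17). Of 3 GLIS genes, zinc finger relatives of GLI and ZIC, GLIS3 rose by 0.96, GLIS2 fell by 0.86 and GLIS1 did not pass (-0.30).

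From hMN-D6 to hMN-D42 all 4 ZIC genes rose, and 65.9% of genes passed. ZIC1 reached 14.8, 16.7 and 17.3 CPM from 2.77, 2.79 and 2.41 CPM (log2 fold change 2.63, SE 0.251, adjusted p = 9e-08). ZIC2 reached 9.53, 9.95 and 10.4 CPM (2.05, SE 0.160, adjusted p = 2.61e-15), ZIC5 1.82, 1.34 and 1.56 CPM (2.22, SE 0.309, adjusted p = 1.57e-08) and ZIC4 1.32, 1.78 and 1.87 CPM from 0.720, 0.338 and 0.0483 CPM (2.23, SE 0.499, adjusted p = 0.000441). No range overlapped. For all 4 genes the call held when any library of the groups was left out, though the value for ZIC4 went to 3.02 without the first hMN-D6 library.

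The steps at which the genes passed differed, with no test of a difference in timing. ZIC1 and ZIC4 rose between days 6 and 12 (1.35, adjusted p = 0.000666, and 1.55, adjusted p = 0.0228), when ZIC2 and ZIC5 did not pass and 46.6% of genes did. ZIC1 and ZIC2 rose between days 24 and 30, by 0.87 (adjusted p = 0.0222) and 0.63 (adjusted p = 0.0157), when 11.9% of genes passed. ZIC2 and ZIC5 rose between days 30 and 42, 3.35-fold (log2 fold change 1.74, SE 0.150, adjusted p = 4.81e-13) and 4.75-fold (2.25, SE 0.299, adjusted p = 1.91e-08), when 41.7% of genes passed; ZIC1 rose by 0.94 (SE 0.209, adjusted p = 0.00176), and ZIC4 did not pass (0.69, adjusted p = 0.179) except without the second hMN-D30 library (1.26, adjusted p = 0.0112).

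Markers of other cell types rose toward day 42 as well. The 5 neural crest markers summed to 31.0 to 44.1 CPM in hMN-D30 and 123 to 133 CPM in hMN-D42, and all 5 were at 1 CPM or more in both. SOX10 was at 11.7 ± 3.57 CPM in hMN-D30 and 46.3 ± 2.66 CPM in hMN-D42, and TFAP2A at 2.61 ± 1.03 and 11.3 ± 0.103 CPM. Mesenchyme markers summed to 103 to 342 CPM and 768 to 881 CPM, with COL1A1 at 674 ± 55.3 CPM in hMN-D42, and glia markers to 10.4 to 12.8 CPM and 34.2 to 36.5 CPM. Motor neuron markers summed to 103 to 108 CPM and 92.7 to 95.3 CPM. The part of these markers in the rise of the ZIC genes was not tested. Over hMN-D42 against hMN-D6, where 65.9% of all genes passed and the median of all genes was 0.03, the dorsal list had 5 higher and 4 lower of 10 tested, the dorsal interneuron list 5 higher and 2 lower of 9, the BMP feedback list 6 higher and 3 lower of 9, the hedgehog list 4 higher and 6 lower of 12, and 2 of 3 GLIS genes were higher.

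Over all 21 steps from a group to the next, ZIC2 passed the test at 17 and ZIC5 at 15, and at all 15 steps where both passed they had the same direction. ZIC1 passed at 12 steps and ZIC4 at 6, and at those 6 they had the same direction. Between the pairs, ZIC1 and ZIC2 both passed at 9 steps, 5 in the same and 4 in opposite directions, and ZIC1 and ZIC5 at 8, with 4 each way. Neighbouring steps share a group, so these counts are not independent. At the steps not described above, 30.5% of genes passed from NeuDet-D4 to NeuDet-D5, where ZIC2 fell by 0.27 (adjusted p = 8.23e-05), 21.9% from hMN-D12 to hMN-D18, where no ZIC gene passed, and 27% from hMN-D18 to hMN-D24, where ZIC1 fell by 0.75 (adjusted p = 0.028). Pearson's r of the mean log2(CPM + 1) over the 22 groups was 0.984 for ZIC2 and ZIC5 and 0.924 for ZIC1 and ZIC4, and from -0.247 to -0.180 for the 4 combinations across pairs; the groups share a line and a time course, so r is a description.

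The proportion of the partners was compared within libraries. The count ratio of ZIC2 to ZIC5 was 2.21 in hESC (2.15 to 2.25 over the libraries), 6.18 in hNMP-D4 (5.68 to 6.96), 3.73 in NeuDet-D6 (3.68 to 3.80), 5.22 in hSCNPC-P5 (5.11 to 5.33), 7.98 in hSCNPC-P10 (7.81 to 8.09) and 3.17 in hSCNPC-P30 (2.97 to 3.46). The libraries did not overlap in any of the 4 comparisons from hESC to hSCNPC-P40, with differences in log2 ratio of 1.49, -0.73, 0.49 and -0.55. For each, an exact two-sided permutation test gave p = 0.1, the smallest that 3 against 3 can give, and 0.3 after adjustment over 12 tests. In the motor neuron comparisons the ratio overlapped between groups (p = 0.4 and p = 0.9, exact). The ratio of ZIC1 to ZIC4 overlapped in all 6 comparisons, with exact p from 0.3 to 1 (with 5 in place of 0.5 added to counts, hNMP-D4 and hESC did not overlap, p = 0.1, exact), and group values ran from 3.38 in hNMP-D1 to 15.5 in NeuDet-D1. The 6 comparisons do not include hNMP-D4 against NeuDet-D1. There the ratio went from 5.14 (3.65 to 6.83 over the libraries) to 15.5 (13 to 20.3), without overlap, and was not tested.

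**Figure D4:**
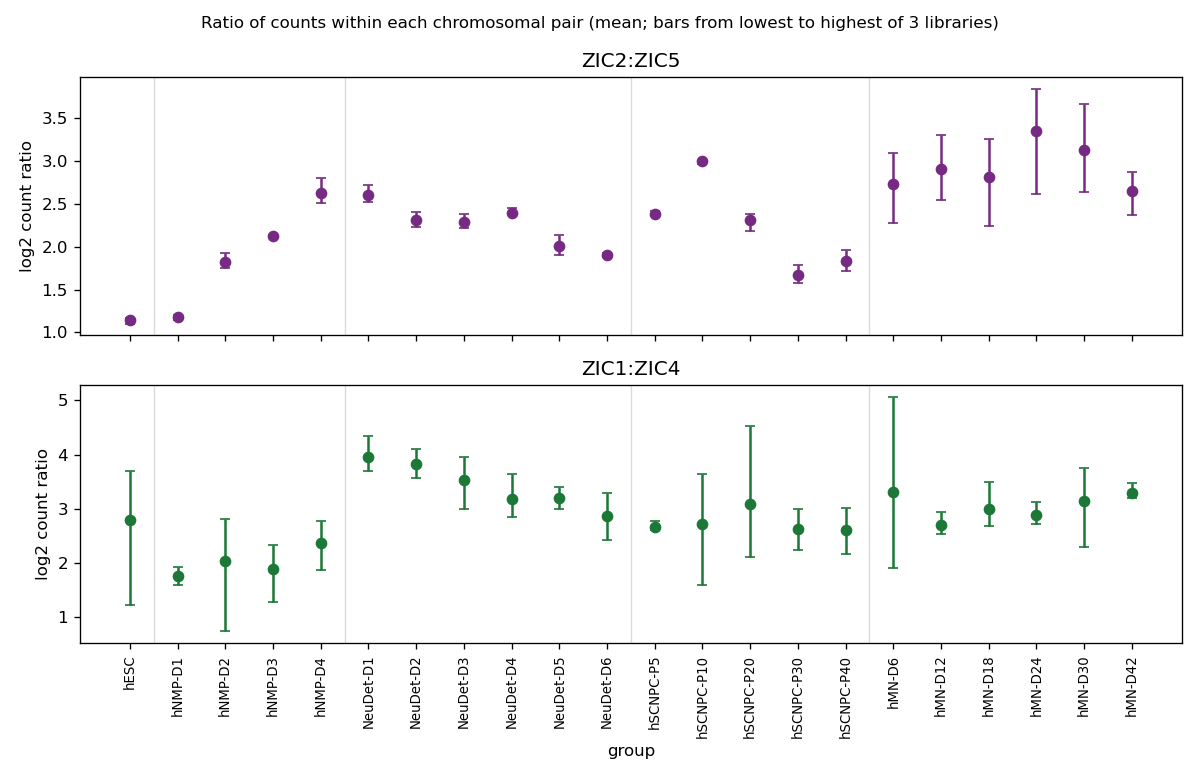
Log2 ratio of counts, with 0.5 added to each count, of ZIC2 to ZIC5 (upper panel) and ZIC1 to ZIC4 (lower panel) for the 22 groups; points are means and bars span the range of the 3 libraries. The ZIC2:ZIC5 bars are short up to hSCNPC-P40, and the mean goes from 1.14 in hESC to 2.63 in hNMP-D4.

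Neighbouring genes were measured for comparison. Of 22 other genes within 500 kb of ZIC2 or ZIC5, 8 reached 1 CPM in some group, and 1 of 8 did near ZIC1 or ZIC4. The long noncoding gene ENSG00000288060 lies between ZIC5 and ZIC2 (chr13:99973526-99980034, minus strand), 1750 bases from the nearer of them. It was at 0.818 ± 0.156 CPM in hNMP-D4, 2.50 ± 0.0336 CPM in NeuDet-D6, 0.337 ± 0.0374 CPM in hSCNPC-P5 and 0.943 ± 0.308 CPM in hSCNPC-P40. It rose into NeuDet-D6 (log2 fold change 1.56), fell into hSCNPC-P5 (-2.85) and rose by hSCNPC-P40 (1.44, adjusted p = 0.00131), the directions of ZIC2 and ZIC5. In hNMP-D4 against hESC it did not pass (-0.56). The coding genes around it changed less at the fall into hSCNPC-P5: CLYBL, a mitochondrial lyase, by -0.24 (not passed), PCCA, a subunit of propionyl-CoA carboxylase, by -0.73, and TM9SF2 by -0.06 (not passed). By hSCNPC-P40 PCCA rose by 0.25, while CLYBL and TM9SF2 fell by 0.70 and 0.14. The long noncoding gene PCCA-DT fell into NeuDet-D6 (-0.54) and hSCNPC-P5 (-1.41) and rose by hSCNPC-P40 (0.59). ENSG00000286757, 5305 bases from the pair, fell into hSCNPC-P5 (-0.86) and did not pass by hSCNPC-P40 (-0.37). In the window of ZIC1 and ZIC4, ENSG00000239922, 429612 bases from the pair, reached 1.03 ± 0.349 CPM in hMN-D42 and rose by 3.62 from hMN-D6.

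Compared between genes, per kilobase of merged exons, ZIC2 made up most of the family until the motor neuron stage. It held 75.1% of the summed CPM per kb in hESC, 88.5% in hNMP-D4, 87.2% in NeuDet-D4 and 79.5% in hSCNPC-P40, and ZIC5 held 24.9% in hESC and 7.85% in hSCNPC-P10. The sum of the 4 genes was 121 CPM per kb in NeuDet-D4, 6.64 in hSCNPC-P10 and 1.23 in hMN-D6. In the motor neuron groups ZIC1 held from 31.6% to 55.0% and ZIC2 from 35.8% to 58.9%, and ZIC1 exceeded ZIC2 on this scale from hMN-D12 to hMN-D30.

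**Figure D5:**
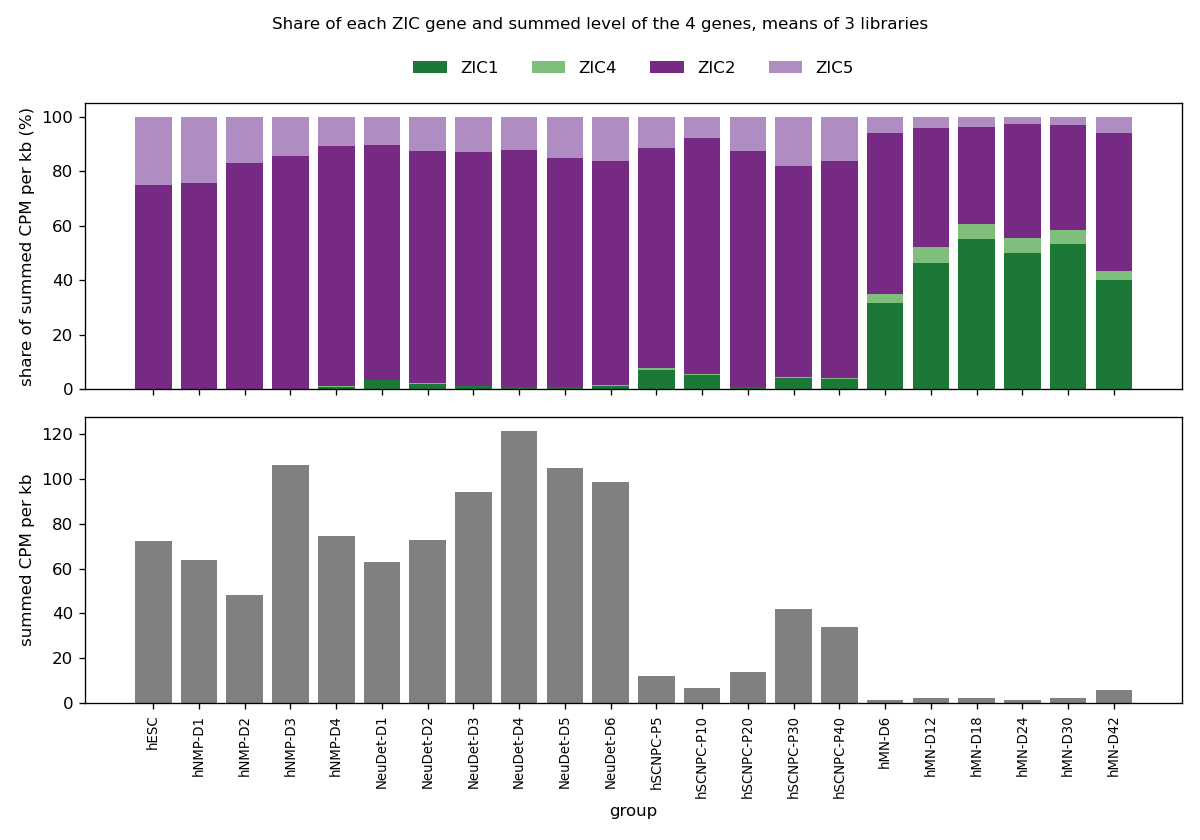
Upper panel, share (%) of each gene in the summed CPM per kb of ZIC1, ZIC2, ZIC4 and ZIC5 for the 22 groups; lower panel, the sum itself in CPM per kb; bars are means of 3 libraries. ZIC2 holds 75.1% or more up to hSCNPC-P40, and ZIC1 reaches 55.0% in hMN-D18, where the sum is 2.097.

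The genes whose group means were most like each member, among 14234 or 14235 genes with at least 5 CPM in some group, were listed by Pearson's r over the 22 groups. For ZIC4 the closest gene was ZIC1 (0.924), followed by RRAGC-DT (0.807), DVL1 (0.798), RADX (0.787) and FSTL3 (0.770). For ZIC5 the closest was ZIC2 (0.984), then PRPS1 and PRDX3 (both 0.977), PMS1 (0.974) and SCML2 (0.973). For ZIC2 TNFAIP8 (0.986) came just above ZIC5, then TOR1AIP1 (0.983), EARS2 (0.981) and DDX10 (0.978). For ZIC1, for which ZIC4 was below the 5 CPM limit, the list was PRR7 (0.840), CSK (0.828), NECAB2 (0.820), NIPSNAP3A (0.805) and TMEM53 (0.802). By Spearman's rho 1, 1, 3 and 0 of the 5 genes stayed in the lists of ZIC1, ZIC2, ZIC4 and ZIC5, and the partner stayed for ZIC4 but not for ZIC2 or ZIC5, so the membership depends on the measure. With a rho of 0.896, ZIC5 ranked 102 in likeness to ZIC2, and ZIC2 ranked 205 in likeness to ZIC5.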

How the data were processed

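Per the labels, total RNA was taken with TRIzol and made into libraries with a NEBNext Ultra kit. Per the labels and methods, the authors used fastp for trimming, HISAT2 (2.1.0) for alignment against hg38, and featureCounts (1.5.3) for gene counts; the annotation release and strand setting are not given in the sources used here. The deposited values are raw counts of 60603 Ensembl genes in 2 tables, of 48 libraries (hESC to hSCNPC) and 18 (hMN); 99.51% of identifiers matched a symbol. No pair of the 66 within-group library pairs was identical.

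Levels are TMM-scaled CPM over 66 libraries. Tests used edgeR (4.0.16, R 4.3.3) quasi-likelihood F tests after filterByExpr, in a fit of 48 libraries (21597 genes) and a fit of 21 libraries (hMN and hSCNPC-P10, 21175 genes), with Benjamini-Hochberg adjustment within each comparison and a threshold of 0.05. The script was tested on simulated data. DESeq2 (1.42.0) was an alternative. Named genes were the 4 ZIC genes, the 5 most alike for each, genes within 500 kb, members with the largest called changes in 9 gene lists (hedgehog, GLIS, dorsal neural tube, ventral spinal cord, primed epiblast, neuromesodermal, early neural, BMP feedback, dorsal interneuron) and cell type markers. Other named members of these lists (POU5F1, SOX2, TBXT, FGF8, GLI1, GLI2, GLIS genes, PAX3, PAX7, NKX6-1, OLIG2) were picked after their values were seen. The members and lists were chosen with earlier results of these data known. PRRXL1, a listed symbol, had no row. With 14142238 to 40204753 counts a library, 1 count is far below 1 CPM; intervals cover counting error only. Neural crest sums are over 5 markers, a choice made after the data were seen; a further listed marker is not reported here.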

Additional observations from a re-analysis of the deposited data

How the results depend on the processing

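Of the 24 fitted changes of the 6 comparisons, all kept direction and call with RLE scaling, without a filter on low counts and with the replicate number as a block, and all but ZIC4 in hMN-D6 against hSCNPC-P10 with DESeq2 (0.029 there) and in a fit of all 66 libraries (0.042); a fit of the 2 compared groups alone gave 23 values, as ZIC4 was filtered out in that comparison. Correlations between the deviations of same-numbered libraries from their group means ran from -0.0255 to 0.0467. With 3 libraries a group, such values cannot show whether the numbers pair the samples. The replicate block changed 0 of 24 calls, for example ZIC1 in hNMP-D4 against hESC (4.019 with the replicate block). Counts of all genes called stayed within 1.5 times under every alternative. For hMN-D6 against another passage, ZIC1 was at -1.111 (hSCNPC-P5), 1.944 (P20), -2.059 (P30) and -1.660 (P40), and ZIC4 at -1.301, 2.210, -2.317 and -1.970. Leaving out each library in turn gave, for that comparison, -0.049 to 0.386 for ZIC1 and -0.801 to 0.511 for ZIC4; for ZIC4 in NeuDet-D6 against hNMP-D4, -0.008 to 0.835; for ZIC1 in hSCNPC-P5 against NeuDet-D6, -0.614 to -0.411; and for ZIC1 in hSCNPC-P40 against hSCNPC-P5, 0.371 to 0.647. With 5 in place of 0.5 added to counts, the difference in log2 ratio turned positive for ZIC1:ZIC4 in hNMP-D4 against hESC (1.224, no longer overlapping), hSCNPC-P40 against P5 (0.029) and hMN-D42 against hMN-D6 (0.719), and for ZIC2:ZIC5 in hMN-D42 against hMN-D6 (0.337), and the ZIC2:ZIC5 ratio no longer overlapped in hMN-D6 against hSCNPC-P10 (-0.707). At single steps, 2 calls of ZIC2 were lost without the filter (hNMP-D1, adjusted p = 0.0587, and NeuDet-D2, adjusted p = 0.0667) and 2 of ZIC1 gained (NeuDet-D2 and NeuDet-D3); ZIC4 in hSCNPC-P10 against P5 was lost in the fit of 66 libraries (adjusted p = 0.0508), and DESeq2 called ZIC2 lower in NeuDet-D6 against NeuDet-D5 (adjusted p = 0.0261). Leaving out libraries at the passage steps was chosen after seeing the data. The causes were not tested. Depth limits ZIC4, with 0 to 48 counts a library, and ZIC5 in the hMN groups, with as few as 4.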
